A study of Mus musculus with 5 samples.

Results

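The serum amyloid, orosomucoid and lipocalin acute phase genes were followed through 5 liver RNA pools: Saa1, Saa2, Saa3, Saa4, Lcn2, Orm1, Orm2, Apcs, Hp and Lbp. These 10 of the 28632 genes on the array were taken by symbol alone, with every probe that carried the symbol, which gave 12 probes of the 41174. Saa1 and Saa4 had 2 probes each and the other 8 genes had 1, and every probe lay at 1 spot of each array. For a gene with 2 probes the brighter stood for the gene, and the other is given beside it. All animals were male C57BL/6J mice, 25 weeks old, and all RNA came from liver. The control group was untreated. HFHFr-F mice ate a high-fat, high-fructose (HFHFr) diet throughout 20 weeks and had severe insulin resistance, per the labels. The other 3 groups ate it for 16 weeks and were then switched for 4 weeks. HFHFr-N mice went to normal diet and were insulin resistant. HFHFr-FA mice stayed on the HFHFr diet, now supplemented with all-trans retinoic acid, the active form of vitamin A, and were not insulin resistant, with slight steatosis. HFHFr-NA mice went to normal diet with all-trans retinoic acid and had recovered. RNA of 5 mice was pooled for each group and hybridised to 1 array, so no difference below has a replicate check, and none was tested. "Higher" and "lower" describe these pools.

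Acute phase proteins are made mainly by hepatocytes and secreted into plasma, where their concentration shifts during infection, injury and chronic inflammation. Interleukin-1 and interleukin-6 are the classical inducers and act through NF-kappa B, STAT3 and C/EBP factors on the promoters. Saa1 and Saa2 encode the acute phase serum amyloid A proteins, which travel on high-density lipoprotein. Saa3 is a serum amyloid A made in liver and also in macrophages and fat, and Saa4 encodes a form that is considered constitutive. Lcn2 encodes lipocalin 2, which binds iron-carrying bacterial siderophores and is stored in neutrophil granules as well as secreted by the liver. Orm1 and Orm2 encode orosomucoids (alpha-1-acid glycoproteins), abundant drug- and lipid-binding plasma proteins. Apcs encodes serum amyloid P, a pentraxin and a main acute phase protein of the mouse. Hp encodes haptoglobin, which binds free haemoglobin, and Lbp the lipopolysaccharide-binding protein, which hands bacterial lipopolysaccharide to CD14.

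Probes for 3 of the genes with the largest ratios to control are shown because the values below are the brightness of 60-base sequences such as these, not of whole transcripts. Ratios of Saa1 come from its brighter probe, which is not printed, unless its other probe is named. Each printed sequence is the strand of the messenger RNA, 5′ to 3′, as the array files give it, and none of its bases is marked.
Saa1 (A_51_P361650, the dimmer of the 2 Saa1 probes): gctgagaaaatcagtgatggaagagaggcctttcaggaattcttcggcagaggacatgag
Saa3 (A_51_P337308): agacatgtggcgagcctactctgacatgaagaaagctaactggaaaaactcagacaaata
Lcn2 (A_51_P510156): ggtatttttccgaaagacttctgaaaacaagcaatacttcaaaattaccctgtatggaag
Positions are on the mm9 build, per the file headers. The Saa1 probe spans chr7:53996167-53996639 on the minus strand and the Lcn2 probe chr2:32241037-32241281 on the minus strand. Both cover more genome than their 60 bases, so an intron splits each, as it does the probes of Orm1 (chr4:63006483-63007090) and Lbp (chr2:158154142-158157684). The Saa3 probe lies at chr7:53968031-53968090 on the minus strand without a gap, as do the other 7 probes at their places. The brighter Saa1 probe is at chr7:53996070-53996129, the Saa2 probe at chr7:54009535-54009594, and the Saa4 probes at chr7:53984760-53984819 (the brighter) and chr7:53983662-53983721. The Orm2 probe is at chr4:63024979-63025038, the Apcs probe at chr1:174824959-174825018 and the Hp probe at chr8:112099172-112099231. The 6 probes of the 4 serum amyloid A genes fall within 41564 bases of chromosome 7, and the 2 orosomucoid probes within 18556 bases of chromosome 4. Exons and untranslated regions were not determined, because no annotation of that build was used here.

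The 250 bases before the start of the 4 genes that were at least 2-fold above control in all 4 diet pools are shown because these genes were high in the same pools. They come from the RefSeq promoter table of GRCm38.p6, 5′ to 3′ along the gene, and capitals mark matches to a C/EBP-like motif, TTNNGNAA, on either strand.
Saa1 (chr7:46742981-46743230, minus strand): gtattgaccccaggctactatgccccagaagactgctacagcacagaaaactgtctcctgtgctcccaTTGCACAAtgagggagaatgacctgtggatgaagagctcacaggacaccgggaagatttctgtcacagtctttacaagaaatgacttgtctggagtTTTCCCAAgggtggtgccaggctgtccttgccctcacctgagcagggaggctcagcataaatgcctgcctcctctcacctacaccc
Saa2 (chr7:46751583-46751832, plus strand): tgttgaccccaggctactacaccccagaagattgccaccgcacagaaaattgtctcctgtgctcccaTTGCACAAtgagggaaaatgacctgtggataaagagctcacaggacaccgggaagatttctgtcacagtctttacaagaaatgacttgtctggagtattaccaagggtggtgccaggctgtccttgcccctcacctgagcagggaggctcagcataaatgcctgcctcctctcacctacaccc
Saa3 (chr7:46715677-46715926, minus strand): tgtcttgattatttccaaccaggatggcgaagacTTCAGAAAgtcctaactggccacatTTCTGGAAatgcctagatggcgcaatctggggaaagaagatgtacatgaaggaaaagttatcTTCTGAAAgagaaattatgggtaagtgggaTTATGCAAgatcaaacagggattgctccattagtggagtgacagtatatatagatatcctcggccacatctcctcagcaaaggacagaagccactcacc
Lcn2 (chr2:32387740-32387989, minus strand): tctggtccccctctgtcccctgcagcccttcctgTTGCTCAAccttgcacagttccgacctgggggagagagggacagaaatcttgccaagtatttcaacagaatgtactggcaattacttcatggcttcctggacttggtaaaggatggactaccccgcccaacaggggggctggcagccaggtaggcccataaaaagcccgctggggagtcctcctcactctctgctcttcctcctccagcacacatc
RefSeq promoters were matched by symbol for 7 of the 10 genes. Those of Orm1, Hp and Lbp were not analysed here. At least 1 C/EBP-like match was found in 6 of the 7, Saa1, Saa2, Saa3, Saa4, Lcn2 and Orm2, against 36.8% of 32851 promoters of the same length. Saa1 held 2 matches, at -182 to -175 and -86 to -79 relative to the start, and Saa2 held 1, at -183 to -176. Saa3 held 4. A STAT-like motif, TTCNNNGAA, was found in Apcs alone and in 7.02% of all promoters, and the kappa B consensus in none of the 7 and in 7.25% of all. The printed promoters hold only the C/EBP-like kind. A match is a run of letters and was not tested as a site. The promoters of Saa1 and Saa2 were identical at 238 of 251 aligned columns (94.8%), whereas Saa1 and Saa3 shared 52.2% and Saa1 and Saa4 49.5%. Saa1 and Saa2 are close copies in their transcripts too, so the probe of each could bind RNA of the other, and how the signal divides between them is uncertain. The same holds for Orm1 and Orm2.

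Signals are given as multiples of the array's 75th percentile of processed signal, called scaled signal here, and differences as log2 ratios of scaled signal between 2 pools, so that 1 is 2-fold. Between 46.7% and 49.4% of 43379 spots per array were well above background and none was saturated. The 10 genes were well above background on every array, apart from Lcn2 in control. Spots of replicated probes within an array had a median SD of 0.07 to 0.09 on the log2 scale. A gap between neighbouring levels of 2 such SDs, 0.21 to 0.23 for a pair of arrays, is used below only to order levels. It leaves out all spread between mice, extractions and arrays. The HFHFr-FA array was alone on its slide and the 4 others shared another, so its slide and its treatment cannot be told apart. All 11 hepatocyte markers on the array were well above background in all 5 pools, with a summed scaled signal from 3739 in HFHFr-FA to 4961 in HFHFr-NA. Most of the sum was Alb and Ahsg, which are also listed as negative acute phase genes. Cps1 and Tat stood at 62.7 and 66.9 in HFHFr-F, against 162 and 160 in control. In liver RNA, fewer cells of a type and less RNA per cell cannot be told apart. Other scalings moved the median log2 ratio of all genes by over 0.1 in 2 comparisons: in HFHFr-N against HFHFr-F from 0.10 to -0.01 with median centring or cyclic loess, and in HFHFr-F against control from -0.08 to 0.02 with cyclic loess.

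Saa1, Saa2 and Saa3 had the same order of pools: lowest in control, then HFHFr-N, HFHFr-NA, HFHFr-F and highest in HFHFr-FA. The brighter Saa1 probe had control at a scaled signal of 38.0, HFHFr-N at 118, HFHFr-NA at 175, HFHFr-F at 289 and HFHFr-FA at 569.9. The other Saa1 probe gave 18, 57.5, 80.7, 147 and 293 in that order. Both probes therefore spread alike, 15-fold and 16.3-fold between control and HFHFr-FA. For Saa2 control stood at 33.1, HFHFr-N at 117, HFHFr-NA at 179, HFHFr-F at 287 and HFHFr-FA at 629, a spread of 19.0-fold. Saa3 stood at 5.40, 14, 19.5, 30.1 and 64.3 in the same order, a spread of 11.9-fold. All gaps between neighbouring levels of these 3 genes exceeded 2 spot SDs.

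Saa4, the constitutive form, spread far less. Its brighter probe put control at a scaled signal of 41.2, HFHFr-N at 61.7, HFHFr-NA at 53.3, HFHFr-F at 68.0 and HFHFr-FA at 88.8. The other probe gave 16.6, 27.5, 24.1, 38.8 and 36.6. Control was lowest with both probes, and the highest pool was HFHFr-FA with the brighter probe and HFHFr-F with the other, 2.15-fold and 2.33-fold above control. HFHFr-N and HFHFr-NA were within 2 spot SDs of each other with both probes. HFHFr-F lay that close to HFHFr-N with the brighter probe and to HFHFr-FA with the other, so the order at the top depended on the probe.

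Lcn2 was not well above background in control, where its scaled signal was 0.07. HFHFr-N followed at 0.42, HFHFr-NA at 1.1, HFHFr-F at 2.81 and HFHFr-FA at 3.60, and each gap exceeded 2 spot SDs. The order of the pools was that of Saa1, Saa2 and Saa3. Since control gave no measured level, ratios to it are lower bounds, taken against the dimmest detected probe of that array, at 0.09.

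**Figure D1:**
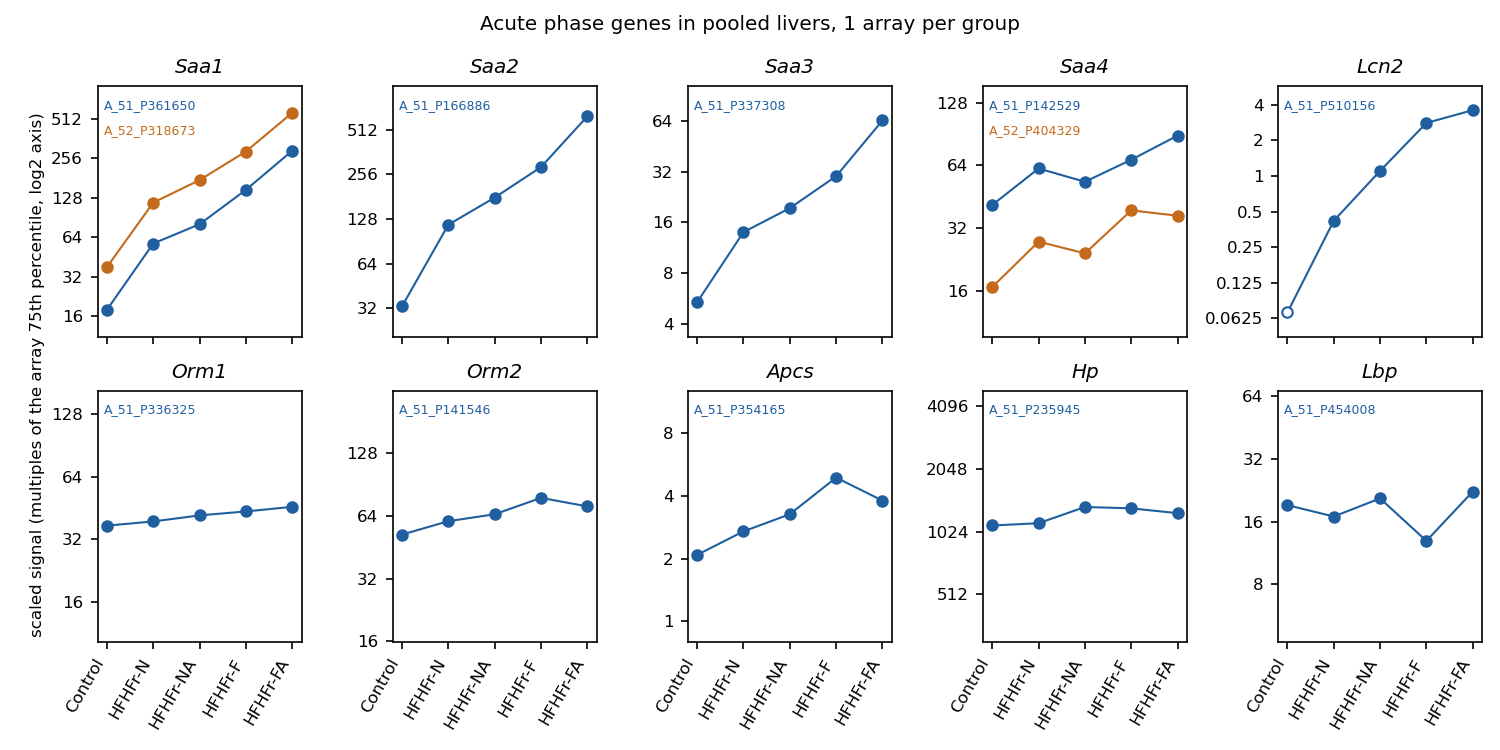
Scaled signal (multiples of the array's 75th percentile, log2 axis) of each of the 10 genes in the 5 pools, 1 point per probe and array, with an open point where the spot was not well above background. The lines only join points of a probe. Saa1, Saa2, Saa3 and Lcn2 climb over the 5 pools in the order drawn, whereas Orm1 and Hp span 1.23-fold.

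The orosomucoids were under 2-fold between any 2 pools. Orm1 had control at a scaled signal of 37.2, HFHFr-N at 38.9, HFHFr-NA at 41.6, HFHFr-F at 43.5 and HFHFr-FA at 45.7, a spread of 1.23-fold. Orm2 had 52.1, 60.4, 65.2, 78.2 and 71.1, with HFHFr-F highest and a spread of 1.5-fold. None of the 4 gaps between neighbouring levels exceeded 2 spot SDs for either gene. The lowest and highest pools were further apart on the log2 scale, 0.59 for Orm2 (control and HFHFr-F) and 0.30 for Orm1 (control and HFHFr-FA).

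Of the other 3 plasma proteins, Apcs spread the most and, like Orm2, was highest in HFHFr-F. Apcs had control at a scaled signal of 2.09, HFHFr-N at 2.70, HFHFr-NA at 3.27, HFHFr-F at 4.90 and HFHFr-FA at 3.8. It was highest in HFHFr-F, 2.35-fold above control, and all gaps between neighbouring levels exceeded 2 spot SDs. The narrowest of these, HFHFr-NA against HFHFr-FA, did so barely, at a log2 ratio of -0.22, and was -0.16 in an alternative. Hp had the brightest probe of the set, with control at 1096, HFHFr-N at 1124, HFHFr-NA at 1345, HFHFr-F at 1324 and HFHFr-FA at 1256. No neighbouring pair was 2 spot SDs apart, although HFHFr-NA, the highest, lay 0.30 above control on the log2 scale. Lbp was lowest in HFHFr-F, at 12.9, against 16.9 in HFHFr-N, 19.2 in control, 20.7 in HFHFr-NA and 22.3 in HFHFr-FA. The other 4 pools followed each other by less than 2 spot SDs, although HFHFr-NA lay 0.29 above HFHFr-N on the log2 scale. Over all 12 probes, 29 of 48 gaps between neighbouring levels were wider than 2 spot SDs and 19 were not.

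The continued HFHFr diet was set against control to show what 20 weeks of it went with. Serum amyloid A and lipocalin transcripts were far more abundant in the HFHFr-F pool: Lcn2 at least 32.5-fold (log2 ratio 5.02), Saa2 8.66-fold (3.11), Saa1 7.60-fold (2.93) and Saa3 5.57-fold (2.48). Of the 14631 genes measured in this pair, 33 had a larger ratio than Saa2, bounds included. Apcs was 2.35-fold higher (1.23). So 5 of the 10 passed 2-fold upwards and 0 downwards, against 5.38% and 3.23% of all measured genes. The median log2 ratio of the 10 was 0.98, and that of all genes -0.08. The remaining genes were under 2-fold: Saa4 at 0.72 (1.22 with its other probe), Orm2 at 0.59, Hp at 0.27, Orm1 at 0.23 and Lbp at -0.57. Lbp was the 1 gene of the set with a lower signal in HFHFr-F than in control. With normexp background correction and quantile normalization the Lcn2 log2 ratio was 2.87, still past 2-fold but below Saa2.

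Return to normal diet was read from HFHFr-N, once against control and once against HFHFr-F. Against control, Lcn2 was at least 4.84-fold higher in HFHFr-N (2.28), Saa2 3.54-fold (1.83), Saa1 3.10-fold (1.63) and Saa3 2.6-fold (1.38). These 4 were at least 2-fold higher and 0 lower, against 1.14% and 0.834% of 14507 genes. Lcn2 did not reach 2-fold with normexp and quantile normalization, at 0.87, a setting in which 47 of 14504 genes were at least 2-fold higher. The other 6 of the 10 genes lay between -0.18 (Lbp) and 0.58 (Saa4), and the value of Hp, 0.04, was -0.01 in an alternative. Against HFHFr-F, the same 4 genes were at least 2-fold lower and 0 higher, against 3.64% and 2.14% of 14801 genes. Lcn2 was 6.72-fold lower (-2.75), and 20 genes had a lower ratio. Saa1 was 2.45-fold lower, Saa2 2.44-fold and Saa3 2.14-fold. Apcs stood at -0.86 and Lbp, alone above 0, at 0.39. The median of the 10 genes was 0.48 against control and -0.61 against HFHFr-F, where those of all genes were 0.02 and 0.10. Both comparisons use the HFHFr-N array. In the pool fed normal diet for 4 weeks, Saa1, Saa2, Saa3 and Lcn2 thus lay between control and HFHFr-F.

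All-trans retinoic acid was compared with no supplement on each diet. On the HFHFr diet, Saa2 was 2.20-fold higher in HFHFr-FA than in HFHFr-F (1.13), Saa3 2.14-fold (1.1) and Saa1 1.97-fold (0.98, and 0.99 with its other probe). Of the 10 members 2 passed 2-fold upwards and 0 downwards, against 2.78% and 2.81% of 14928 genes. Saa1 passed 2-fold too, at 1.01 to 1.15, when arrays were scaled on the probes measured everywhere, by cyclic loess or by normexp and quantile normalization. Lbp, the lipopolysaccharide carrier, followed at 0.79. Saa4 stood at 0.38 with its brighter probe and at -0.08 with the other, and Lcn2 at 0.36. Apcs was lower in HFHFr-FA, at -0.37. Orm2 (-0.14), Hp (-0.08) and Orm1 (0.07) lay near 0, and the sign of Orm1 turned with median centring and that of Orm2 with normexp and quantile normalization. The median of the 10 genes was 0.37, and that of all genes 0.03.

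On normal diet, the retinoic acid pool, HFHFr-NA, was 2.64-fold above HFHFr-N for Lcn2 (1.40), with 89 of 14875 genes at a larger ratio. This was the 1 gene at least 2-fold higher, and 0 were lower, against 1.51% and 1.33% of all genes. With normexp and quantile normalization Lcn2 was not, at 0.89, a setting in which 50 of 14870 genes were at least 2-fold higher. Saa2 stood at 0.61, Saa1 at 0.57 and Saa3 at 0.47, and the rest between -0.21 (Saa4) and 0.29 (Lbp). The median of the 10 genes was 0.28, and that of all genes 0.03. Saa1, Saa2, Saa3, Lcn2 and Lbp had ratios above 0 on both diets, under each alternative too, with Lbp on normal diet down to 0.18. The difference between the diets in the retinoic acid log2 ratio (HFHFr minus normal) was 0.41 for Saa1, 0.53 for Saa2 and 0.62 for Saa3. It was -1.04 for Lcn2, the 1 gene of the 10 past 2-fold, where 3.37% of 14279 genes were 2-fold or more below 0 and 3.35% above. Under 2 other normalizations the Lcn2 difference was under 2-fold, and 0 of the 10 genes passed. The differences have no replicate check. The HFHFr-FA array also lay on the other slide, so slide and treatment cannot be told apart on the HFHFr diet. HFHFr-NA and HFHFr-N shared a slide.

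**Figure D2:**
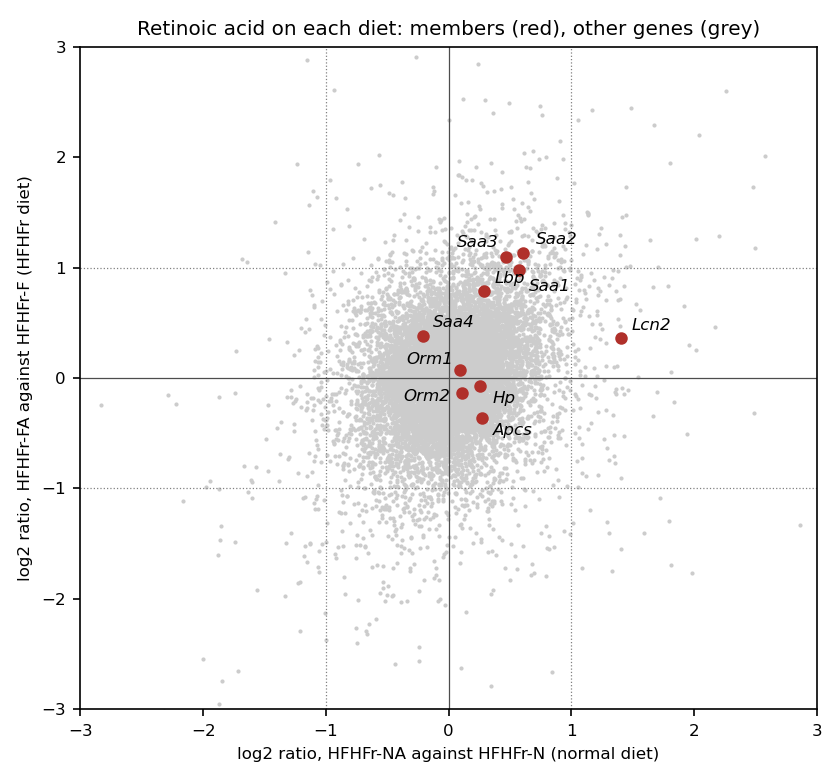
Log2 ratio with against without all-trans retinoic acid on the HFHFr diet (vertical axis) and on normal diet (horizontal axis), 1 point per gene, the 10 acute phase genes in red and other genes in grey. Saa1, Saa2 and Saa3 lie at 0.98 to 1.13 on the HFHFr diet and 0.47 to 0.61 on normal diet, and Lcn2 at 0.36 and 1.40.

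Against control, Lcn2, the 4 serum amyloid genes, Orm1 and Lbp had their largest ratios in the HFHFr-FA pool (Saa4 with its brighter probe). Apcs, Orm2 and Hp did not. Lcn2 (at least 41.7-fold, 5.38), Saa2 (19.0-fold, 4.25), Saa1 (15-fold, 3.91) and Saa3 (11.9-fold, 3.58) were higher. Of the 14797 genes measured, 5 had a larger ratio than Saa3, bounds included. Saa4 was 2.15-fold higher (1.11). These 5 were at least 2-fold higher and 0 lower, against 4.49% and 1.92% of all genes. Apcs stood at 0.87, Orm2 at 0.45, Orm1 at 0.30, Lbp at 0.22 and Hp at 0.20. With normexp and quantile normalization Lcn2 was at 3.22, below Saa1, Saa2 and Saa3. Per the labels the HFHFr-FA mice were not insulin resistant. Their array was not on the slide of control, so group and slide cannot be told apart here. In HFHFr-NA, whose mice had recovered per the labels, Lcn2 was at least 12.8-fold above control (3.68). Saa2 was 5.40-fold higher (2.43), Saa1 4.61-fold (2.20) and Saa3 3.61-fold (1.85). These 4 passed 2-fold upwards and 0 downwards, against 2.0% and 1.45% of 14728 genes. Lcn2 was at 1.76 with normexp and quantile normalization, below Saa2, so the order of the 4 genes depends on the processing. The medians of the 10 genes were 0.99 in HFHFr-FA and 0.51 in HFHFr-NA, and those of all genes -0.06 and 0.05.

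Between the retinoic acid pools, normal diet went with lower levels. The HFHFr-FA array lay on another slide than HFHFr-NA, so diet and slide cannot be told apart here. Saa2 was 3.52-fold lower in HFHFr-NA than in HFHFr-FA (-1.82), Saa3 3.31-fold (-1.72), Lcn2 3.26-fold (-1.70) and Saa1 3.25-fold (-1.70). These 4 genes were at least 2-fold lower and 0 higher, against 3.34% and 2.46% of 15045 genes. Saa4 stood at -0.74 and the other 5 between -0.22 (Apcs) and 0.10 (Hp, which reached -0.28 with another normalization). The median was -0.48, and 0.09 over all genes. The 8 comparisons share arrays, control in 4 of them, so their values are set side by side and not counted as separate support.

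**Figure D3:**
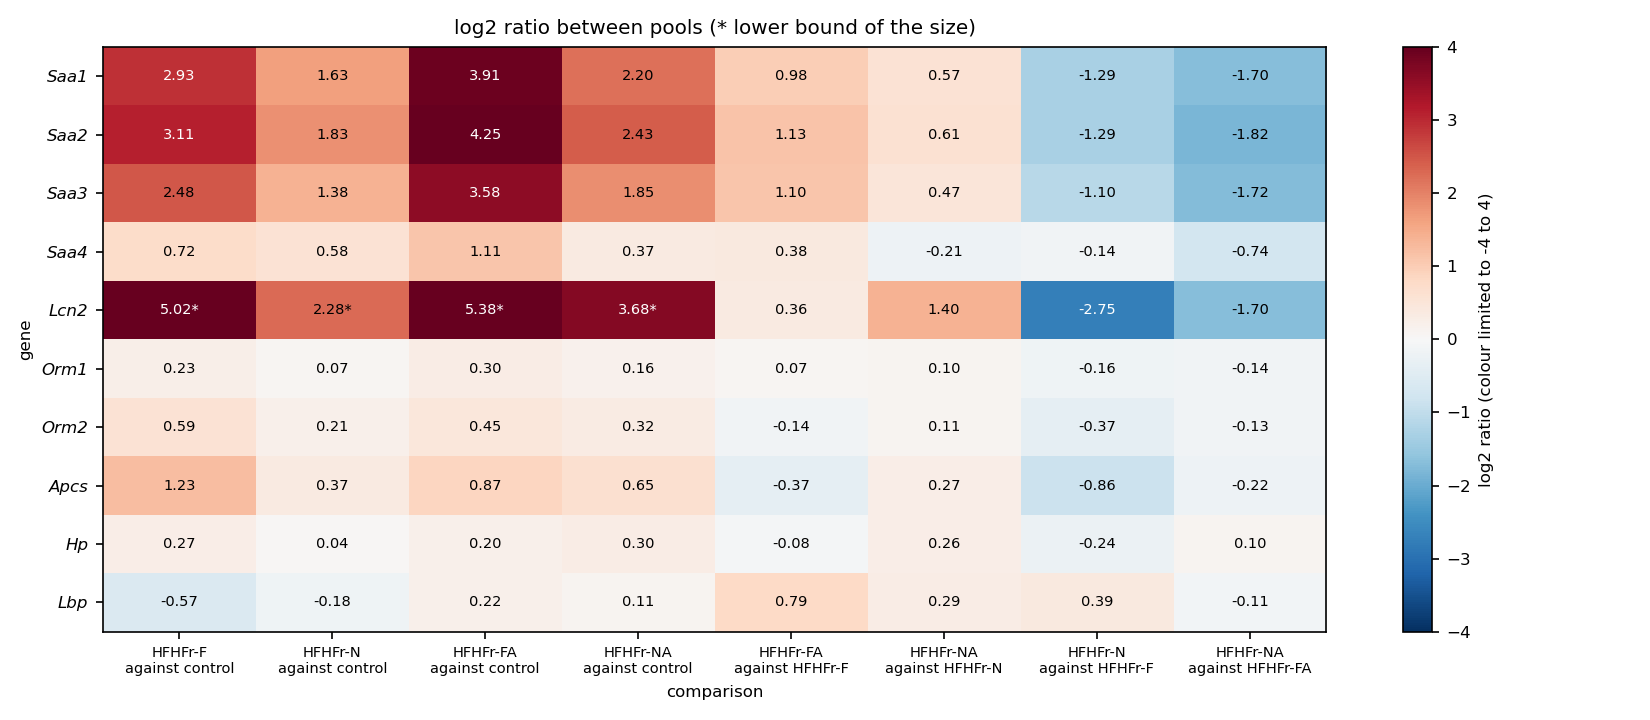
Log2 ratio of scaled signal for each of the 10 genes (vertical) in the 8 comparisons of pools (horizontal), with the value printed in each cell, colour limited to -4 to 4, and an asterisk on the 4 lower bounds of Lcn2 against control. Saa1, Saa2, Saa3 and Lcn2 are above 1 against control in all 4 diet pools, whereas Orm1 and Hp stay between -0.24 and 0.30 in all 8 comparisons.

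Inducers of the acute phase response were mostly under 2-fold in HFHFr-F against control, as were most measured genes. The list of inducers, receptors and transcription factors held 30 genes, of which 26 were measured in HFHFr-F against control. There 1 was at least 2-fold higher and 1 lower, against 5.38% and 3.23% of all measured genes, with a median log2 ratio of 0.07. The higher count was 0 with the deposited value table, and the lower count 0 with all probes of a gene averaged. The higher gene was the interleukin-1 receptor Il1r1 (1.0) and the lower Lifr (-1.32), the receptor of leukaemia inhibitory factor. Il1rn, the secreted antagonist of interleukin-1, stood at 0.87 and the hepatocyte factor Hnf4a at -0.81. Il6, Il1a and Tnf, which encode cytokines, were not well above background on any array. In HFHFr-FA against HFHFr-F 0 of 26 reached 2-fold, against 2.78% of all genes higher and 2.81% lower. The median of the 26 was 0.37 against 0.03 for all genes. Lifr stood at 1.0, just short of 2-fold, and Il1b, encoding interleukin-1 beta, at 0.81. Socs3, a STAT3 target and feedback inhibitor, was at 0.73, Cebpd at 0.68, Stat3 at 0.47 and Cebpb at 0.44. In HFHFr-F against control the same genes stood at 0.51 (Il1b), 0.12 (Socs3), 0.38 (Cebpd), 0.10 (Stat3) and 0.13 (Cebpb). In HFHFr-FA against control, 3 of 26 were at least 2-fold higher, against 4.49% of all genes. In HFHFr-NA against HFHFr-N it was 1 of 27, against 1.51%.

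Other acute phase genes were mixed. Of 28 further positive acute phase genes, 27 were measured in HFHFr-F against control. Of these, 6 were at least 2-fold higher and 1 lower, against 5.38% and 3.23% of all measured genes, with a median of 0.12. The 4 furthest from 0 were Cd14, the lipopolysaccharide coreceptor (2.11), Hamp, encoding the iron hormone hepcidin (-1.86), the metallothionein Mt2 (1.59) and the metalloreductase Steap4 (1.56). Serpina3n stood at 0.29 and Crp, encoding C-reactive protein, at -0.56. In HFHFr-FA against HFHFr-F, 5 of 27 were at least 2-fold higher and 1 lower, against 2.78% and 2.81% of all genes. The median was 0.34. With median centring the counts of these listed genes were 2 and 3. Hamp was higher there (2.49), with control at a scaled signal of 119.9, HFHFr-N at 153, HFHFr-NA at 215, HFHFr-F at 33.1 and HFHFr-FA at 186, so HFHFr-F stood below the other 4 pools. The fibrinogen-like gene Fgl1 (1.52), the fibrinogen chain Fga (1.07) and the protease inhibitor Serpina3n (1.0) were also higher, Hamp2 was lower (-1.5) and Crp stood at 0.37. On normal diet 0 of 28 were at least 2-fold higher with retinoic acid and 2 lower, against 1.51% and 1.33% of all genes. Of these 28 ratios 2 were bounds.

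Negative acute phase genes, which fall in a classical response, numbered 16. Of these, 4 were at least 2-fold higher in HFHFr-F than in control and 0 lower, against 5.38% and 3.23% of all genes. The median was 0.05. The 4 higher genes were Serpina7 (2.43) and Serpina6 (1.39), which encode hormone-binding globulins, the apolipoprotein gene Apoa4 (2.35) and the carbonic anhydrase Car3 (1.34). In HFHFr-FA against HFHFr-F 1 was at least 2-fold lower, Apoa4 at -1.41, against 2.81% of all genes. The median was -0.18. With median centring 3 of the 16 were lower. Serpina7 was at -0.94, Serpina6 at -0.93 and Car3 at -0.80.

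Binding partners and receptors of the 10 proteins were 19 genes on the array. In HFHFr-F against control 5 of 16 measured were at least 2-fold higher and 0 lower, against 5.38% and 3.23% of all genes. The median was 0.32, and 2 of the 16 ratios were bounds. The 5 higher genes included Cd14, which takes lipopolysaccharide from LBP, Hmox1 (1.70), which breaks down haem, the pattern receptor Tlr2 (1.70) and the antibody receptor Fcgr1 (1.19). In HFHFr-FA against HFHFr-F none of 16 reached 2-fold, against 2.78% of all genes higher and 2.81% lower. Cd163, the haptoglobin-haemoglobin receptor, stood at 0.92, the fatty acid transporter Cd36 at -0.89, Cd14 at -0.68 and Tlr2 at -0.65. In HFHFr-NA against HFHFr-FA 6 of 16 were at least 2-fold lower and 0 higher, against 3.34% and 2.46% of all genes. The median was -0.45, and 2 of these 16 ratios were bounds.

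**Figure D4:**
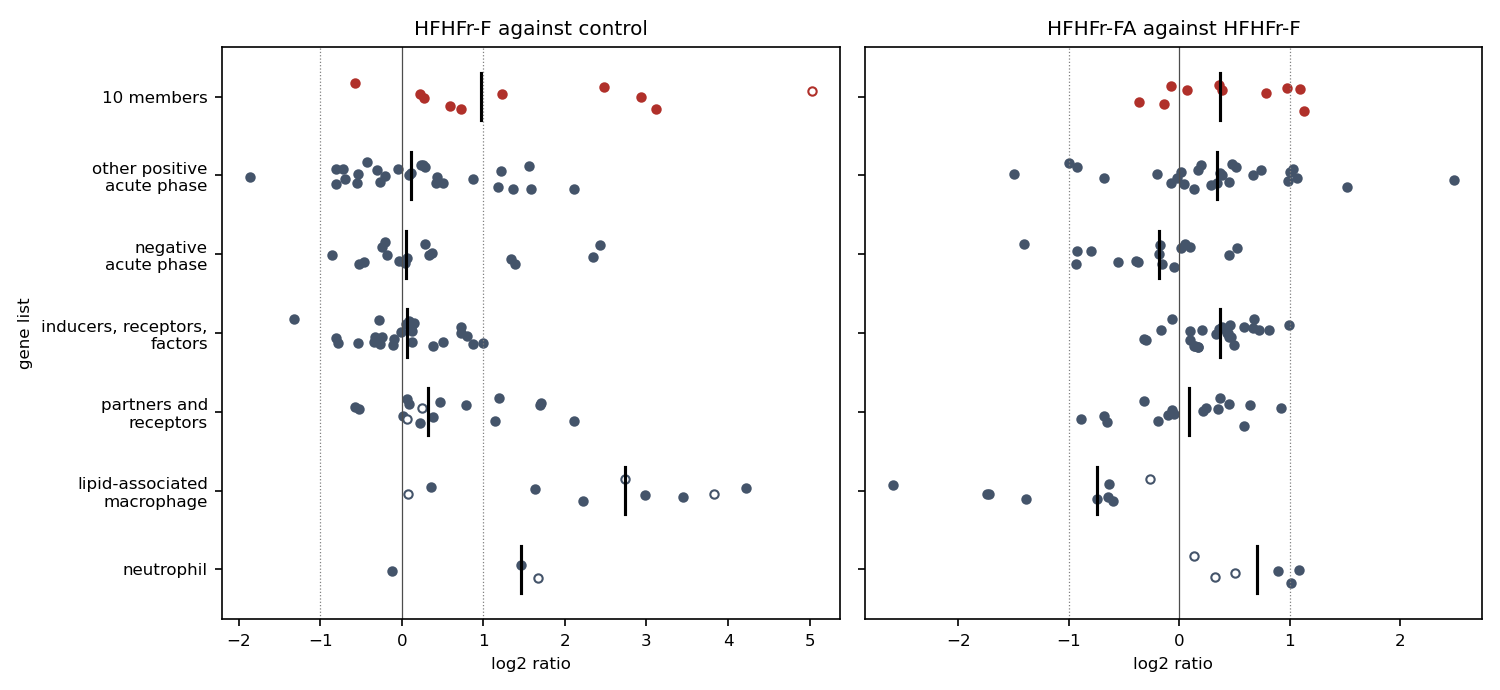
Log2 ratio (horizontal) of each measured gene of 7 lists (vertical) in HFHFr-F against control and HFHFr-FA against HFHFr-F, 1 point per gene with vertical jitter, open points for bounds and a bar at each list's median. The 10 members have medians of 0.98 and 0.37, and the lipid-associated macrophage markers 2.73 and -0.75.

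Leukocytes that can also make serum amyloid A3 or hold lipocalin 2 were followed by their markers. Of 11 other neutrophil markers, 2 were well above background in control, 3 each in HFHFr-N, HFHFr-NA and HFHFr-F, and 6 in HFHFr-FA. Their summed scaled signal put control at 2.55, HFHFr-N at 3.90, HFHFr-NA at 6.99, HFHFr-F at 6.39 and HFHFr-FA at 11.7. Most of it was S100a9, a calcium-binding neutrophil protein, at 1.98, 3.34, 6.06, 5.47 and 10.1. S100a9 and Lcn2 were both lowest in control and highest in HFHFr-FA, but S100a9 was higher in HFHFr-NA than in HFHFr-F and Lcn2 lower. S100a8 stood at 0.11 in control, not well above background, then 0.14, 0.40, 0.34 and 0.69 in that order. Csf3r, measured in every pool, stood at 0.24, 0.22, 0.22, 0.22 and 0.46, so it was not higher in HFHFr-F than in control. The neutrophil-defining Elane, Ltf, Ngp, Mmp8 and Cxcr2 were not well above background in any pool, and Mpo, Camp and Retnlg in HFHFr-FA alone. The part of neutrophils in the Lcn2 values was not tested.

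Lipid-associated macrophage markers had another order. Their summed scaled signal put control at 18.3, HFHFr-N at 21.2, HFHFr-NA at 19.6, HFHFr-F at 101.4 and HFHFr-FA at 29.1, with 6, 7, 7, 9 and 8 of 10 well above background. Spp1, encoding osteopontin, held 60.4 of the sum in HFHFr-F and between 7.47 and 10.1 of it in each of the other 4 pools. In HFHFr-F against control 7 of 9 measured were at least 2-fold higher, against 5.38% of all genes, with 3 bounds among the 9. In HFHFr-FA against HFHFr-F 4 of 9 were at least 2-fold lower and 0 higher, against 2.81% and 2.78% of all genes. Of the latter 9 ratios 1 was a bound. Saa3, which macrophages can make, was 2.14-fold higher in HFHFr-FA than in HFHFr-F. Macrophage and Kupffer cell markers put control at a sum of 109, HFHFr-N at 137, HFHFr-NA at 103, HFHFr-F at 211 and HFHFr-FA at 195. Most of each sum was Lyz2, Cd5l and Marco, which like Adgre1 and Cd68 were highest in HFHFr-F. Clec4f, Vsig4, Csf1r and Cd163 were highest in HFHFr-FA, at 17.8, 2.96, 4.67 and 2.21. In HFHFr-F these stood at 11.2, 1.94, 3.33 and 1.17. The fat cell genes Adipoq, Lep and Plin1 were not well above background in any pool. Of the 8 adipocyte genes on the array, 3 were well above background in every pool: Fabp4, Cfd and Lipe. Fabp4 put control at 5.51, HFHFr-N at 7.24, HFHFr-NA at 8.20, HFHFr-F at 22.7 and HFHFr-FA at 14.2. Cfd stood at 28.2, 67.7, 21.7, 31.0 and 64.3 in that order, and Lipe between 0.24 and 0.38. The parts of macrophages and of fat cells in the Saa3 values were not tested.

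On chromosome 7 the genes beside the serum amyloid genes were under 2-fold in the comparisons drawn, as were most measured genes. RefSeq (GRCm38.p6) orders the region Sergef, Tph1, Saal1, Saa3, Saa4, Saa1, Saa2, Hps5, Gtf2h1, Ldha. In HFHFr-F against control the neighbours stood at 0.49 (Sergef), -0.26 (Saal1), 0.31 (Hps5), -0.23 (Gtf2h1) and -0.74 (Ldha), all under 2-fold. In HFHFr-FA against HFHFr-F they lay between -0.49 (Sergef) and 0.38 (Ldha). Tph1 was not well above background on any array. Saa4 lies between Saa3 and Saa1, and its 0.72 against control (1.22 with the other probe) was smaller than the 2.48 and 2.93 of those genes.

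**Figure D5:**
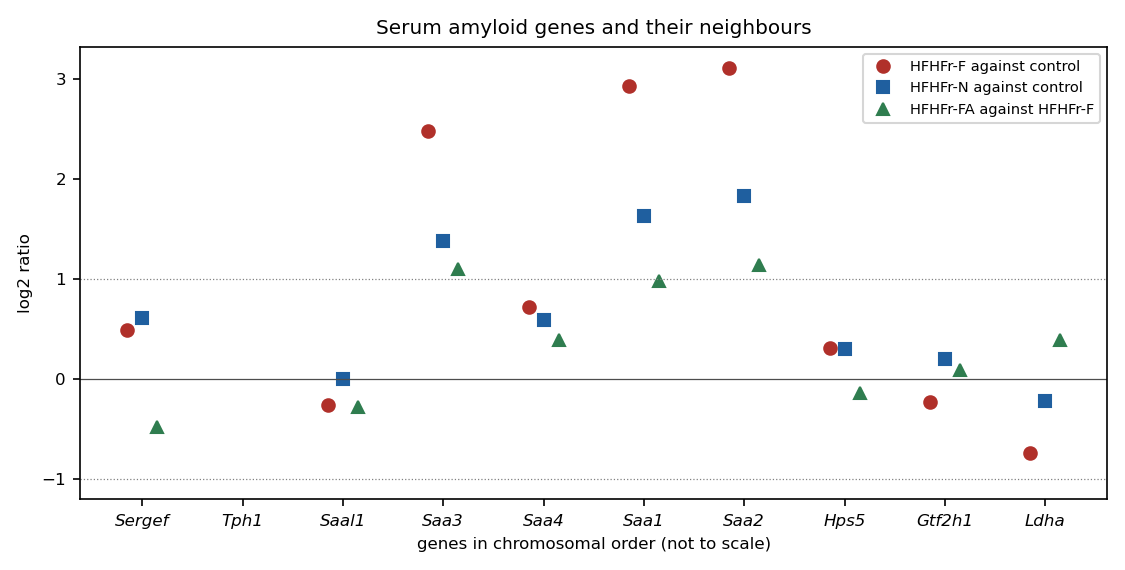
Log2 ratio (vertical) of the 4 serum amyloid genes and the genes beside them in chromosomal order (horizontal, not to scale) in 3 comparisons. In HFHFr-F against control Saa3, Saa1 and Saa2 reach 2.48 to 3.11 and the measured neighbours lie between -0.74 and 0.49.

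Likeness to each gene was measured as the distance between log2 profiles over the 5 pools, each centred on its own mean. Of 13131 genes measured on all arrays, 11242 others with a proper gene symbol were candidates. Clone, predicted-gene and accession names were left out. For Saa1 the nearest was Saa2 (0.25) and then Saa3 (0.34), and the next, Amz1, was at 1.17. For Saa2 they were Saa1, Saa3 (0.55) and Slc26a10 (1.40). For Saa3 they were Saa1, Saa2 and Slc26a10 (1.0). The nearest candidate outside the family was thus at 1.0 to 1.40 for these 3. The nearest to Saa4 were Ripk3 (0.14), Wfdc17 (0.17) and Pilra (0.18), and none was another serum amyloid. Apcs was nearest to Fam177a (0.10), Cygb (0.12) and Pcsk5 (0.12). Profiles that spread little lie close to others that spread little, as for Orm1, Orm2 and Hp. The nearest were Agrn, Baz1a and Plscr3 for Orm1, Tubb3, Lynx1 and Pld3 for Orm2, Rabl6, Colgalt1 and Gtf3c5 for Hp, and Notch4, Vegfa and Ccdc130 for Lbp, at distances of 0.05 to 0.09. With 5 pools such distances only describe these arrays. Lcn2 was left out, since control gave it no measured level.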

How the data were processed

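The members, lists and rules were chosen with earlier results of these data known. RNA pools of 5 mice were hybridised in 1 colour to Agilent 4x44K arrays and quantified by Agilent Feature Extraction (version 10.5.1.1 per the file headers). The processed intensity per spot is background-subtracted, per the file headers, and was deposited unscaled, with each spot's mean and background intensity. The deposited value table holds a linear ratio of processed intensity to a constant per array and served as an alternative. Control and outlier spots were left out, 60 to 96 outliers per array. Signals were divided by the array's 75th percentile and averaged over spots of a probe as log2. RefSeq accessions named 24844 probes, and others kept the file's name. The probe brightest on average stood for a gene. A gene entered a comparison when well above background on at least 1 of its arrays. If unmeasured on the other, its ratio is a bound. With 1 array per group no test was possible, and the number of arrays limits the precision. The 4 pathway and 11 marker lists held 195 symbols, of which 181 matched. Besides the 10 genes, up to 4 listed genes with the largest ratios per pathway list and comparison, 9 preset genes, defining markers and the 3 nearest profiles were named. Alternatives were median centring, the 75th percentile over probes measured everywhere, cyclic loess, normexp (offset 50) with quantile normalization in limma 3.58.1, all probes averaged, no detection filter and outliers kept. Ratios were checked on simulated data.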

Additional observations from a re-analysis of the deposited data

Results flagged for a closer look

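For 4 of the 10 genes the retinoic acid log2 ratio pointed one way on the HFHFr diet and the other way on normal diet. Each group is 1 array, and the difference between the diets was not tested. Saa4 stood at 0.38 on the HFHFr diet and at -0.21 on normal diet, a difference of 0.60. With its other probe both ratios were below 0, at -0.08 and -0.19. Apcs stood at -0.37 and 0.27, a difference of -0.64. Hp stood at -0.08 and 0.26, a difference of -0.34, and the former was under 2 spot SDs and was 0 with normexp and quantile normalization. Orm2 stood at -0.14 and 0.11, a difference of -0.25, and its ratio on the HFHFr diet was 0.15 with normexp and quantile normalization, above 0 like that on normal diet. Both ratios of Orm2 were under 2 spot SDs.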

How the results depend on the processing

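No paired analysis was possible because each group is 1 array, and no replicate could be left out. Each of the 80 log2 ratios of the 10 genes was recomputed under 8 alternatives, and none past 2-fold reversed. With cyclic loess 27 of the 80 moved by 1 spot SD of the pair or more, the largest by 0.34. With normexp and quantile normalization 33 of the 80 did, the largest by 2.16. The 2-fold calls changed for Lcn2 and Saa1 alone, as given with each result. Members at least 2-fold higher in HFHFr-NA against HFHFr-N numbered 1, and 0 with normexp and quantile normalization. Members with a retinoic acid ratio at least 2-fold larger on normal diet numbered 1, and 0 both with that normalization and with the 75th percentile over probes well above background on all arrays. The cause was not tested. Of 512 counts of the pathway lists, 464 stayed within 1.5 times. Of 256 medians of these lists, 27 moved by 1 spot SD of the pair or more, 14 of them among the 32 with cyclic loess. The median of the 3 measured adipocyte genes in HFHFr-FA against control was 1.19, and -0.14 over all listed probes without a detection filter. Of all calls in HFHFr-F against control 62.5% were higher, and 74.2% with cyclic loess and 49.9% without a detection filter. In HFHFr-FA against HFHFr-F the share was 49.8%, and 35.9% with median centring and 39.7% with cyclic loess. In HFHFr-N against HFHFr-F it was 37.0%, and 25.8% with median centring, 24.4% with cyclic loess and 54.7% without a detection filter. In HFHFr-NA against HFHFr-FA it was 42.4%, and 29.7% with the 75th percentile over measured probes and 53.6% without a detection filter. In HFHFr-FA against control it was 70.1%, and 53.2% without a detection filter.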

Other observations

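Orm3, the third orosomucoid gene of the mouse, lies between Orm1 and Orm2 in the RefSeq order. It is not among the 10 genes, and was picked after its values were seen. Its scaled signal put control at 0.90, HFHFr-N at 2.52, HFHFr-NA at 2.37, HFHFr-F at 5.84 and HFHFr-FA at 3.34. It was highest in HFHFr-F, like Orm2 and Apcs, and against control HFHFr-F stood at a log2 ratio of 2.70, HFHFr-FA at 1.89, HFHFr-N at 1.48 and HFHFr-NA at 1.39. Orm1 and Orm2 stood at 0.23 and 0.59 in HFHFr-F against control. Retinoic acid went with a log2 ratio of -0.81 for Orm3 on the HFHFr diet and -0.09 on normal diet. Over the 250 bases before the start, the Orm2 and Orm3 promoters were 85.9% identical. In HFHFr-F against control, the genes before Orm1 stood at -0.15 (Ambp), -0.25 (Kif12) and 1.39 (Col27a1), and those after Orm2 at 0.76 (Akna), -1.08 (Whrn) and 0.11 (Atp6v1g1). Orm1, Orm2 and Orm3 are close copies, so their probes may share RNA.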
